A study of Mus musculus with 7 samples.

Results

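Microglia are the resident macrophages of the brain. The cells described here are those that the authors named Microglia with no further qualifier, called main microglia in what follows. An exact match to that name in the deposited cell table found 163 of 28644 cells under 1 of 23 cell type names. The closest other names were a second microglial one, Microglia (Low-quality/activated), with 251 cells, and 4 names of monocytes and macrophages with 7477 cells together.

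All 7 mice were engrafted intracranially at 8 to 12 weeks of age with CT-2A, a mouse glioma cell line. In the 4 KO mice a tamoxifen-inducible Cre at the Sall1 locus (allele Sall1 tm5(cre/ERT2)Ryn, made on B6;129) was combined with the floxed allele Siglece tm1Bcgen (made on B6.129P2); the labels call them CRE+ and Siglece KO. The 3 WT mice came from the same cross, and the labels call them CRE-. Both genotypes received 2.5 mg tamoxifen per injection from day 7 after engraftment, daily until day 21 and every other day from then on, so no group was free of tumour or of tamoxifen. The driver removes Siglece only where Sall1 is active and after tamoxifen, and it occupies the Sall1 locus itself. The tumour-bearing hemisphere was dissociated for 30 minutes at 37 °C and stored frozen. Live cells with CD45, CD11b or both were sorted after thawing, and each mouse gave 1 droplet library read from the 5-prime end of the transcripts.

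Microglia arise in the embryo, keep themselves by local division and depend on signals such as TGF-beta and CSF1 from their surroundings. In glioma they mix with monocytes that enter from the blood and turn into macrophages, and the transcription factor Sall1, the purine receptor P2ry12 and the membrane protein Tmem119 are commonly used to tell the residents apart. Siglece is an inhibitory receptor of myeloid cells that binds sialic acid sugars on neighbouring cells. Nlrp3, which recurs in the results, is the sensor of an inflammasome that matures interleukin 1 beta.

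The main microglia were unevenly spread over the mice. KO replicates 1, 2, 3 and 4 held 10, 7, 0 and 15 of them, and WT replicates 1, 2 and 3 held 44, 48 and 39. KO replicate 3 therefore has no value in any result on expression in main microglia, and those results rest on 3 KO and 3 WT mice. Its cells under other names enter the levels pooled by name and the shares of cells with a UMI. The cells had a median of 6226 UMIs (unique molecular identifiers, 1 for each captured transcript), and their sums ran from 26904 UMIs in KO replicate 2 to 368269 in WT replicate 1. Levels are given as CPM, the usual depth-scaled unit, in which the UMIs of a gene are divided by all UMIs of the cells summed. A sum cannot tell fewer cells with a transcript from less transcript per cell. Of the 163 cells, 3 carried a barcode that also occurred in another library, as did 926 of all cells. Xist, the transcript of the inactive X chromosome, was at 904 to 1307 CPM in the main microglia of KO replicates 1 and 2 and WT replicate 3, and at 2.72 CPM or less in the other 3. The labels used here give no sex.

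All 5 markers set for these cells (P2ry12, Tmem119, Sall1, Olfml3 and Sparc) were found in them, and 4 of the 5 had their highest pooled level under this name. P2ry12 stood at 573 CPM in main microglia, 461 CPM in the other microglia name and 39.4 CPM in Macrophages (P5), the next name. Tmem119 stood at 924, 710 and 298 CPM, with Macrophages (Proliferating) next. The level of Olfml3, a secreted matrix protein, was 1414 CPM against 400 CPM in the other microglia name and 162 CPM in Macrophages (P5). Sparc, a matrix protein that binds collagen, was at 1679 CPM, followed by 613 CPM in the other microglia name and 544 CPM in the tumour or stromal cells. Sall1 was at 127 CPM in the other microglia name and 97.1 CPM in main microglia, with all further names at 5.09 CPM or less. That pooled order rested on WT replicate 1, which gave 44 of the 77 Sall1 UMIs of the other microglia name: without it the levels were 78.6 CPM there and 107 CPM in main microglia. Within mice Sall1 was higher in main microglia in 4 of 6. Since names of this kind rest on the expression of the same cells, these differences are a description and carry no test.

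**Figure D1:**
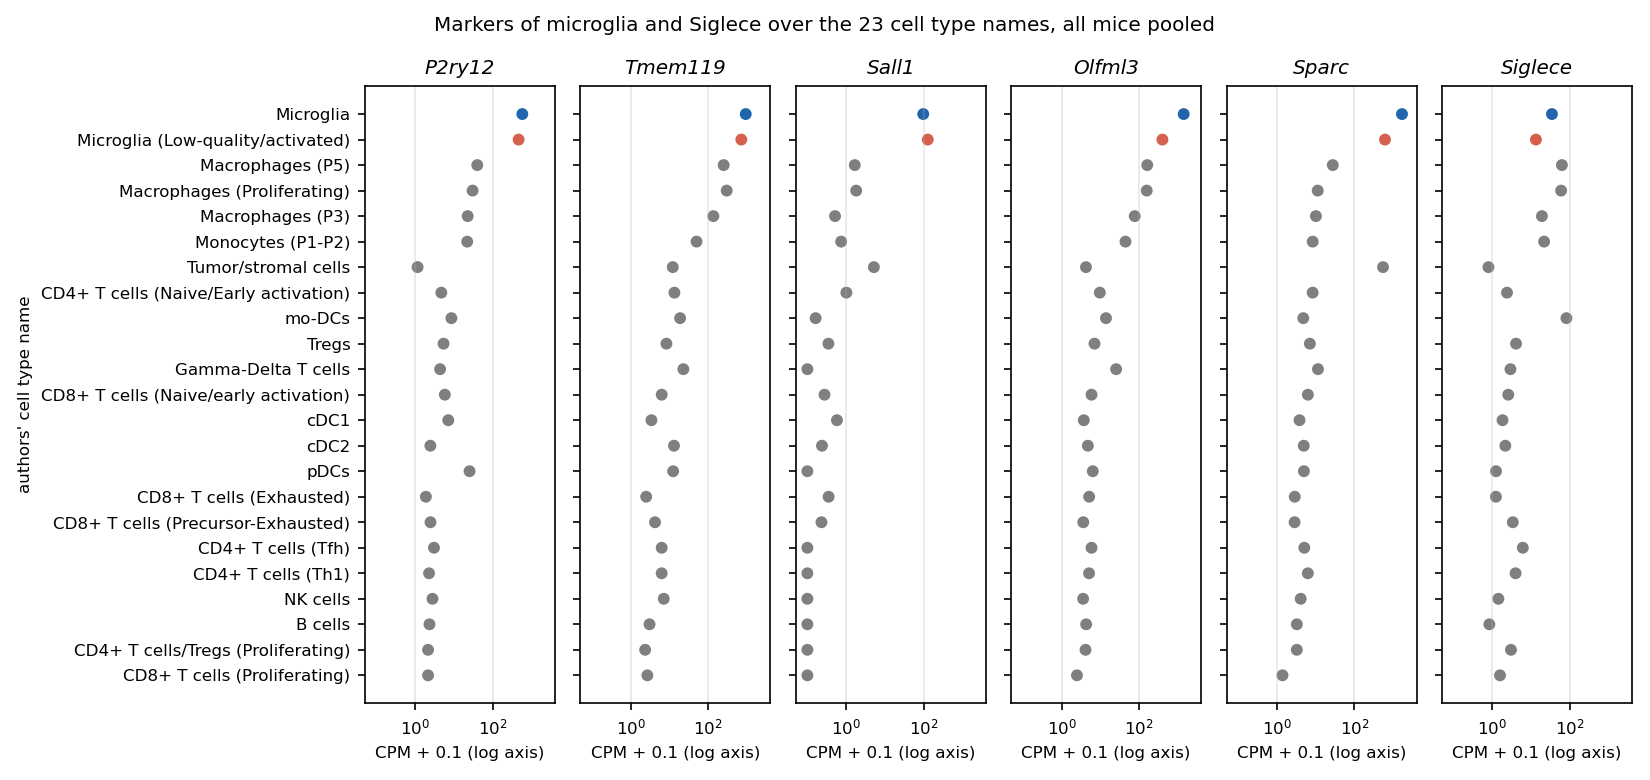
Pooled CPM of the 5 microglia markers and of Siglece (log axis, 0.1 CPM added) under each of the 23 cell type names, with main microglia in blue, the other microglia name in red and all other names in grey. The 2 microglia names sit apart from all others for P2ry12 and Sall1. With KO and WT mice pooled, Siglece is higher in mo-DCs (monocyte-derived dendritic cells, 81.4 CPM) than in main microglia (34.3 CPM).

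Depth differs between names, so every cell was also reduced at random to 1500 UMIs, which left 162 main microglia, 205 of the other microglia name, 7416 monocytes and macrophages and 13422 T cells. At that depth a P2ry12 UMI was found in 48.1% of main microglia, 48.3% of the other microglia name, 4.56% of monocytes and macrophages and 0.499% of T cells, a cell type that should lack the gene. Without the reduction the first of these shares was 79.1% and the second 52.2%. For Tmem119 the 4 reduced shares were 70.4%, 53.2%, 19.9% and 0.902%. Sparc was found in 79.0% of main microglia (exact 95% interval 71.9 to 85.0%) and 49.8% of the other microglia name (42.7 to 56.8%), against 2.25% of monocytes and macrophages and 0.752% of T cells. For Olfml3 the shares were 76.5%, 36.6%, 14.4% and 1.01%. Sall1 was caught in 10.5% of main microglia (6.23 to 16.3%), 15.6% of the other microglia name (10.9 to 21.3%), 0.121% of monocytes and macrophages and 0.0224% of T cells. Over KO and WT cells together, Siglece was caught in 4.32% of main microglia, 2.44% of the other name, 5.80% of monocytes and macrophages and 0.559% of T cells. The intervals cover counting error only.

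The promoters of 2 of the 5 markers are shown as examples of the sequence behind this label, from the RefSeq table of build GRCm38.p6, 250 bases before to 50 after the listed start. Of the 5 markers 4 were matched there, and Tmem119 was not. The letters GGAAGT, the core that the myeloid factor PU.1 and other ETS factors bind, were searched on both strands and are in capitals where found. This search was chosen after other letters had been tried and had given no match in these windows. P2ry12 (chr3:59262936-59263235, minus strand) and Sparc (chr11:55420031-55420330, minus strand) read as follows.
P2ry12: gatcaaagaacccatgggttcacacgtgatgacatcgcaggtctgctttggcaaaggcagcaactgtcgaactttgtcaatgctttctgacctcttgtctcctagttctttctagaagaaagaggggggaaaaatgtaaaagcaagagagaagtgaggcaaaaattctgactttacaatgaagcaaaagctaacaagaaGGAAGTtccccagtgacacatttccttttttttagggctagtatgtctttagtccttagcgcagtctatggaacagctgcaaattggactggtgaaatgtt
Sparc: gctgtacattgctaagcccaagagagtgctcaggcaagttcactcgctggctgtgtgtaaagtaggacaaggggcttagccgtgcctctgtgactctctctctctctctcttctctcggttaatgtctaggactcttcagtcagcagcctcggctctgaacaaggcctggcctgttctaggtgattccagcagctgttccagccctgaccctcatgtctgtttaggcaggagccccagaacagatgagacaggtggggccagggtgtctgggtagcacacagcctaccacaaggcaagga
The P2ry12 window held 1 match and the Sparc window none; of the 3 windows listed for Sall1, 1 held a match, and that of Olfml3 none. Of all 32851 windows of 300 bases, 23.8% held a match, so the P2ry12 match is a description and no evidence of binding. A window without a match says only that these letters are not in it.

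Against monocytes and macrophages the main microglia showed a set of receptors, secreted proteins and lysosomal enzymes at high level, and genes of monocytes at a lower level. Of 1706 genes at 100 CPM or more in either group, 21.1% were higher in main microglia in all 6 mice and 21.6% were lower in all 6. Sparc led the higher genes. Its level in the 6 mice had a low of 961, a median of 1731 and a high of 2352 CPM in main microglia, against 6.88, 12.1 and 32.9 CPM in monocytes and macrophages. The mean log2 ratio (10 CPM added to both sides, as in all such ratios) was 5.99 ± 0.59 (SD, n = 6 mice). Adamts1, a secreted protease, followed with a log2 ratio of 4.80 ± 1.11, from 130 to 961 CPM in main microglia and 0.214 to 3.37 CPM in the others. Siglech, a Siglec receptor found on microglia and plasmacytoid dendritic cells, had a low of 244, a median of 412 and a high of 630 CPM, against 2.82, 5.13 and 8.76 CPM, a log2 ratio of 4.76 ± 0.67. In none of these 3 genes did a mouse bring the cell types near each other. The genes were chosen as higher in every mouse and ranked by this ratio, so that is no separate result.

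Further down came Serpine2, a protease inhibitor (4.32 ± 0.56), Crybb1, a crystallin (4.19 ± 0.99), Lag3, better known as an inhibitory receptor of T cells (4.00 ± 0.16), the axon guidance gene Nav3 (3.89 ± 0.56), P2ry12 (3.80 ± 0.57) and Ltc4s, an enzyme of leukotriene synthesis (3.73 ± 0.28). Lag3 varied least: it lay between 234 and 379 CPM in the main microglia of the 6 mice and between 7.81 and 14.2 CPM in monocytes and macrophages. Cd34, Cst7, Olfml3, Plxdc2, Cxxc5 and Slco2b1 completed the 15 with log2 ratios from 3.33 to 3.57. Cst7, which encodes the inhibitor cystatin F, was at 80.4 to 325 CPM in main microglia. Some of the 15 had higher medians over the 6 mice in the other microglia name than in main microglia. Adamts1 was at 623 against 341 CPM, Nav3 at 489 against 170 CPM, Plxdc2 at 682 against 288 CPM and Slco2b1 at 363 against 195 CPM. The rest of the 15 had lower medians there.

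Chil3, a chitinase-like protein of monocytes, led the lower genes. It had a low of 0, a median of 9.51 and a high of 102 CPM in main microglia, against 378, 918 and 1669 CPM, a log2 ratio of -5.18 ± 1.18. Ly6c2, the classical monocyte antigen, was at 0 to 40.6 CPM against 270 to 1790 CPM (-4.64 ± 0.67). Hp, which encodes haptoglobin, had no UMI among the main microglia of these 6 mice, where 3 UMIs would be 2.51 CPM, and was thus at least 42.7-fold lower than in monocytes and macrophages (107 CPM pooled). Arg1, the arginase of suppressive macrophages, was at -3.41 ± 1.72 and spread most, with 0 to 297 CPM in main microglia. S100a11, Crip1, Plac8, S100a6, Ms4a4a and AA467197 lay between -4.00 and -3.32.

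**Figure D2:**
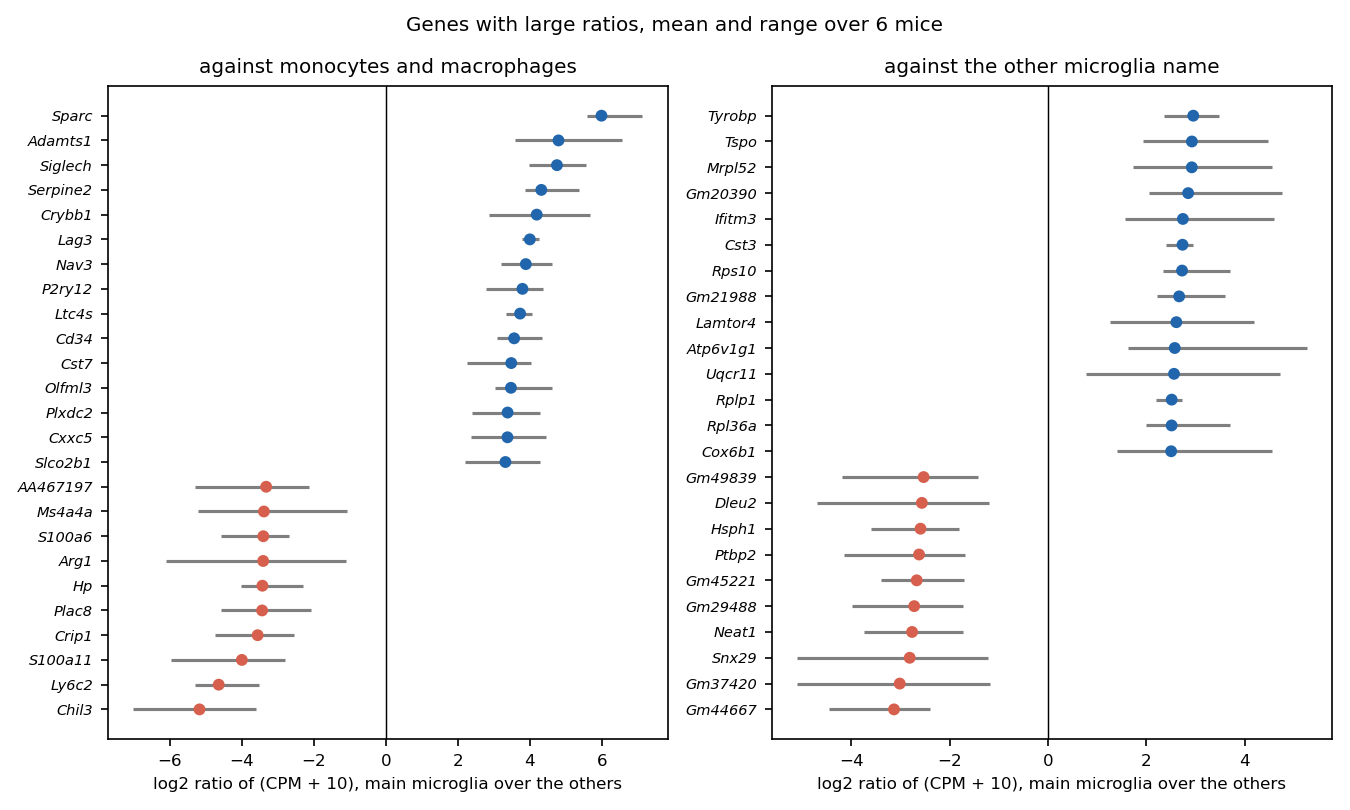
Log2 ratio of CPM (10 CPM added) of main microglia over monocytes and macrophages (left) and over the other microglia name (right); points are means over 6 mice and lines run from the lowest to the highest mouse, for the named genes reported here. The marker Sparc leads on the left at 5.99 and Tyrobp on the right at 2.96; the genes were chosen for 1 direction in every mouse, so no line can cross 0.

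The gene lists were counted over the same 6 mice. They hold several of the genes just named and were chosen with earlier results known. The cell type names rest on the expression of the same cells, so these counts are a description and no independent support. Of 21 microglial surface receptors, 18 were higher than in monocytes and macrophages in all 6 mice and none was lower in all 6. Among them were Cx3cr1, the fractalkine receptor (928 against 235 CPM pooled), Csf1r, the receptor for CSF1 and interleukin 34 (1882 against 679 CPM), Cd81, a tetraspanin (2801 against 452 CPM), and Trem2, a lipid receptor (1096 against 353 CPM). Of 17 secreted and lysosomal genes, 16 were higher in all 6 mice, among them the lysosomal protease Ctsd (7393 against 995 CPM) and the protease inhibitor Cst3 (13939 against 2872 CPM). All 12 monocyte and macrophage markers were lower in all 6 mice, and their summed level was 415 to 1290 CPM against 4715 to 8155 CPM. Of 8 border-associated macrophage markers 4 were lower in all 6 mice and none higher, with Cd163 and Lyve1 at 0 UMIs.

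The transcription factors divided: 8 of 20 were higher in all 6 mice and none lower. Mef2c stood at 256 against 82.1 CPM and Sall3 at 44.4 against 0.591 CPM, while Spi1, which encodes PU.1, stood at 426 against 468 CPM. In the TGF-beta pathway 4 of 16 were higher and 1 lower; the receptors Tgfbr1 and Tgfbr2 were at 298 and 352 CPM against 147 and 124 CPM, and the feedback inhibitor Smad7 at 211 against 88.8 CPM. Of 15 complement genes 7 were higher and 3 lower: the C1q subunits C1qa, C1qb and C1qc were at 8502, 10130 and 7053 CPM against 3459, 5037 and 3464 CPM, and C3 was lower, at 57.0 against 216 CPM. Of 24 disease-associated genes 12 were higher and 3 lower, with Csf1 at 216 against 11.8 CPM and Lgals3, a galectin, at 421 against 1225 CPM. Apoe, the lipid carrier, was at 9254 against 15912 CPM pooled and overlapped between the cell types over the mice.

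Of 23 inflammatory genes 8 were higher and 6 lower in all 6 mice. The chemokines Ccl3, Ccl4 and Ccl12 and the cytokines Tnf and Il1a were among the higher, with Ccl4 at 3609 against 903 CPM, whereas Il1b (558 against 2226 CPM) and Cxcl2 (454 against 1930 CPM) were lower. MHC class II genes were lower for 7 of 10, with Cd74, the invariant chain, at 2752 against 10607 CPM, and higher for H2-Oa and H2-Ob. Of 12 MHC class I genes 5 were higher and 2 lower, by at most 0.83 in mean log2 ratio among the higher. Glycolysis and hypoxia genes were lower for 8 of 17 and higher for none; Vegfa, the vessel growth factor, was at 93.8 against 437 CPM. Phagocytosis genes gave 7 higher and 5 lower of 26, with the receptor Mertk at 298 against 98.6 CPM and its ligands Gas6 and Pros1 at 144 and 172 CPM against 11.3 and 15.2 CPM. Interferon response (1 higher and 1 lower of 23), proliferation (0 and 4 of 19), dissociation stress (4 and 1 of 18) and sialic acid genes (2 and 3 of 17) were counted in the same way. The shares of the phagocytosis, TGF-beta, stress and proliferation genes lay near or below the 21.1% and 21.6% of genes at 100 CPM or more, a base that leaves out low genes while the lists keep theirs. In the Siglec family Siglech, Cd33 and Mag were higher and Siglece was lower in all 6 mice. Cd33 was at 167 against 90.9 CPM pooled, and Siglece at 34.4 against 43.5 CPM (34.3 CPM in main microglia over the total before rounding). These Siglece values include the 3 KO mice, in which it is the targeted gene. In WT replicates 1, 2 and 3 Siglece was at 48.9, 51.4 and 14.6 CPM, against 51.0, 52.9 and 26.6 CPM in monocytes and macrophages.

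Markers of other cell types were summed in the same way. The summed T and NK cell markers were at 10.9 to 262 CPM in main microglia and reached 102 CPM in monocytes and macrophages, with Klrb1c at 0 UMIs. B cell markers summed to 92.4 to 336 CPM, against 45.1 to 121 CPM in monocytes and macrophages, nearly all from Ighm and Cd79b, with Ms4a1 and Ebf1 at 0. Of 16 markers of astrocytes, oligodendrocytes, neurons and vessels 10 were at 0 UMIs, and the list summed to 43.7 to 112 CPM. Glioma and stroma markers summed to 149 to 630 CPM, with Col1a1, Col1a2 and Olig2 at 0 and Vim at 334 CPM pooled. Dendritic cell markers summed to 317 to 747 CPM, mostly from Siglech, against 80.9 to 244 CPM in monocytes and macrophages. Neutrophil markers summed to 86.8 to 149 CPM, mostly from Csf3r, against 42.8 to 83.2 CPM, with Retnlg, Cxcr2, Ly6g and Mmp9 at 0.

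Cells under the other microglia name were shallower and differed in mitochondrial and ribosomal share. They had a median of 2222 UMIs against 6226 in main microglia, a median mitochondrial share of 4.77% against 2.06% of UMIs, and a median ribosomal share of 2.58% against 10.3%. Monocytes and macrophages were close to main microglia in all 3 measures, at 6245 UMIs, 2.12% and 11.1%. The share of cells given an S or G2M phase by the authors was 18.4%, 17.5% and 17.3% in main microglia, the other microglia name, and monocytes and macrophages.

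Of 2323 genes at 100 CPM or more in either microglia name, 22.6% were higher in main microglia in all 6 mice and 36.7% were lower. Tyrobp, the signalling adaptor of Trem2, had a low of 2613, a median of 3125 and a high of 3393 CPM in main microglia, against 292, 379 and 501 CPM, a log2 ratio of 2.96 ± 0.52. Tspo, a mitochondrial outer membrane protein used to image microglia, was at 440 to 635 CPM against 13.9 to 117 CPM (2.93 ± 1.00). Cst3 was at 7677 to 19900 CPM against 1335 to 2572 CPM (2.74 ± 0.23). Others of the 15 were the interferon-induced Ifitm3, the ribosomal genes Rps10, Rplp1, Rpl36a and Mrpl52, the respiratory chain genes Uqcr11 and Cox6b1, the lysosomal Lamtor4 and Atp6v1g1, and Gm20390 and Gm21988, at 2.51 to 2.93. Values that are not whole numbers carried 77.1% of the UMIs of Rps10, 48.0% of Gm20390 and 36.0% of Gm21988. How such values arose is not stated, so the levels of these genes are uncertain.

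Neat1, a long RNA kept in the nucleus, had a low of 74.7, a median of 195 and a high of 402 CPM in main microglia, against 1078, 1318 and 1992 CPM (-2.76 ± 0.70). Hsph1, a heat shock protein, was at 269 to 707 CPM against 1827 to 3892 CPM (-2.59 ± 0.64). Snx29, Dleu2 and Ptbp2 and the unnamed loci Gm44667, Gm37420, Gm29488, Gm45221 and Gm49839 lay between -3.13 and -2.53. The part of the differences in depth, mitochondrial share and ribosomal share in these values was not tested.

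Over the lists, 3 of 5 markers were higher in main microglia than in the other microglia name in all 6 mice, P2ry12 in 5 and Sall1 in 4. Of 17 secreted and lysosomal genes 11 were higher and none lower, and of 24 disease-associated genes 12 were higher and 1, Csf1, lower. Among genes at 100 CPM or more in either name 22.6% were higher and 36.7% lower, while the lists also hold lower genes. Of 20 transcription factors 10 were lower and 1, Spi1, was higher; Mef2c had a low of 140, a median of 256 and a high of 411 CPM against 749, 890 and 984 CPM. TGF-beta pathway genes were lower for 8 of 16 and higher for none, with Smad7 at 149 to 267 CPM against 487 to 992 CPM. Among stress genes 7 of 18 were lower, including Jun (2632 against 6557 CPM pooled) and Jund (2567 against 4064 CPM), which is near that share, and 2 were higher. Surface receptors gave 7 higher and 3 lower of 21, phagocytosis genes 10 and 5 of 26, inflammatory genes 6 and 0 of 23, class I genes 6 and 0 of 12, class II genes 2 and 0 of 10, complement genes 4 and 0 of 15, interferon genes 4 and 2 of 23, and glycolysis genes 4 and 2 of 17.

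**Figure D3:**
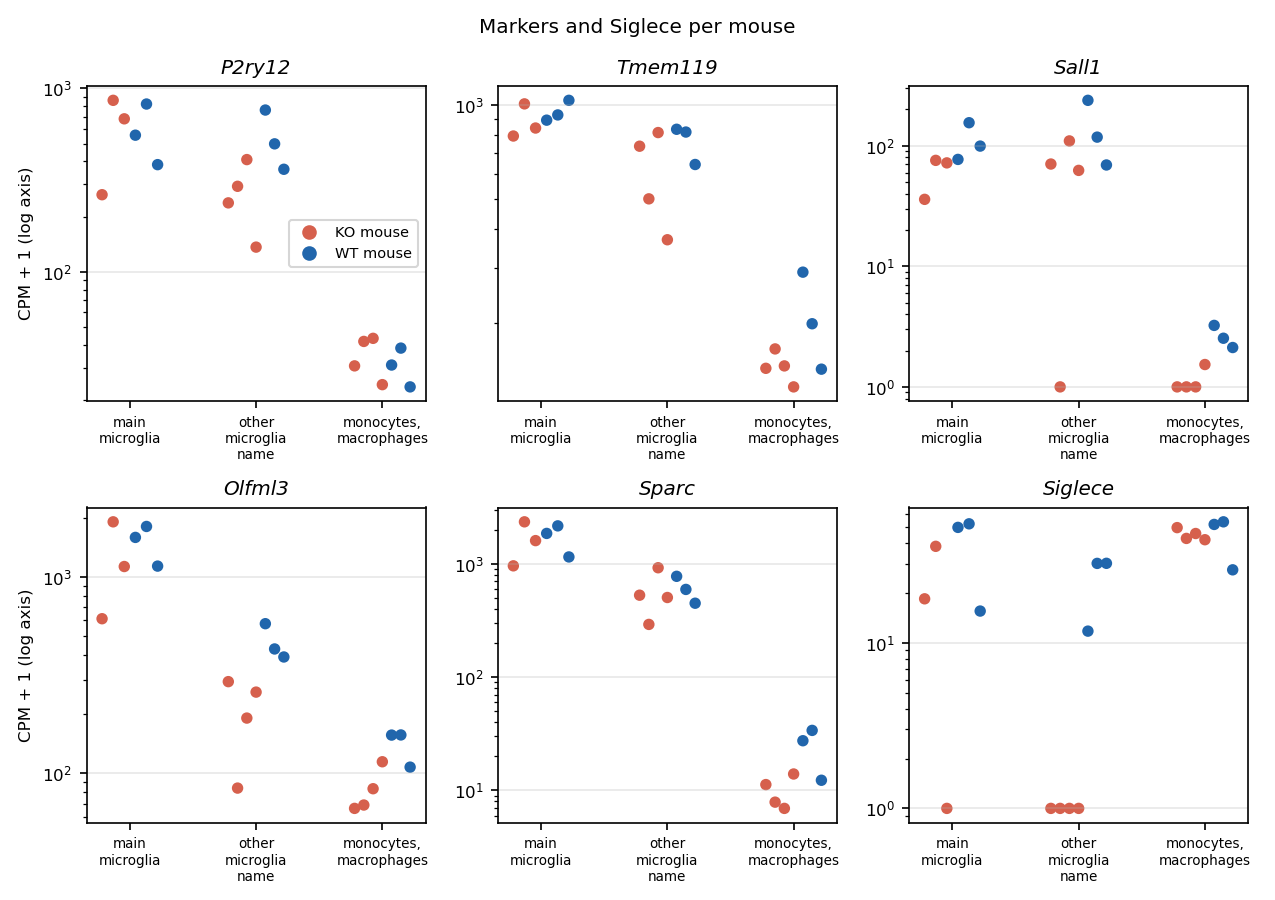
CPM (1 added, log axis) of the 5 markers and Siglece in each mouse, summed over main microglia (6 mice), the other microglia name (7 mice) and monocytes and macrophages (7 mice); KO mice are red and WT mice blue. The markers are higher in main microglia than in monocytes and macrophages in all 6 mice, Sall1 is at 0 UMIs in the other microglia name of KO replicate 2, and Siglece overlaps between main microglia and monocytes and macrophages.

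The first comparison of the genotypes asked whether main microglia made up the same share of the sorted cells. They were 0.709% of the cells in KO replicate 1, 0.132% in replicate 2, 0 of 4744 cells in replicate 3, which allows a share of up to 0.0632% taken as 3 counts (the exact 95% interval reaches 0.0777%), and 0.256% in replicate 4. In WT replicates 1, 2 and 3 they were 1.50%, 1.08% and 0.988%. The 4 KO values lay below the 3 WT values, with 0.274 ± 0.308% (SD, n = 4) against 1.19 ± 0.273% (n = 3), a difference of -0.915 percentage points. The exact permutation test gave a two-sided p of 0.0571, and 0.0857 adjusted over the 2 shares tested; the smallest p this design allows is 0.0286. Among monocytes, macrophages and microglia alone the groups overlapped, at 1.25 ± 1.21% and 2.63 ± 0.513% (exact permutation p = 0.143).

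The division of the microglia between the 2 names was tested in the same way. Main microglia were 33.3%, 33.3%, 0% and 30.6% of all microglia in KO replicates 1 to 4 and 38.9%, 52.2% and 40.6% in WT replicates 1 to 3. The KO values were all below the WT values, at 24.3 ± 16.3% (n = 4) and 43.9 ± 7.20% (n = 3), and the exact permutation p was 0.0857 before and after adjustment. The 0 in KO replicate 3 is of 13 cells and allows a share of up to 23.1% by the same 3 counts (exact 95% interval to 24.7%). Without that mouse the KO mean was 32.4%. Neither share passed the threshold of 0.05.

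**Figure D4:**
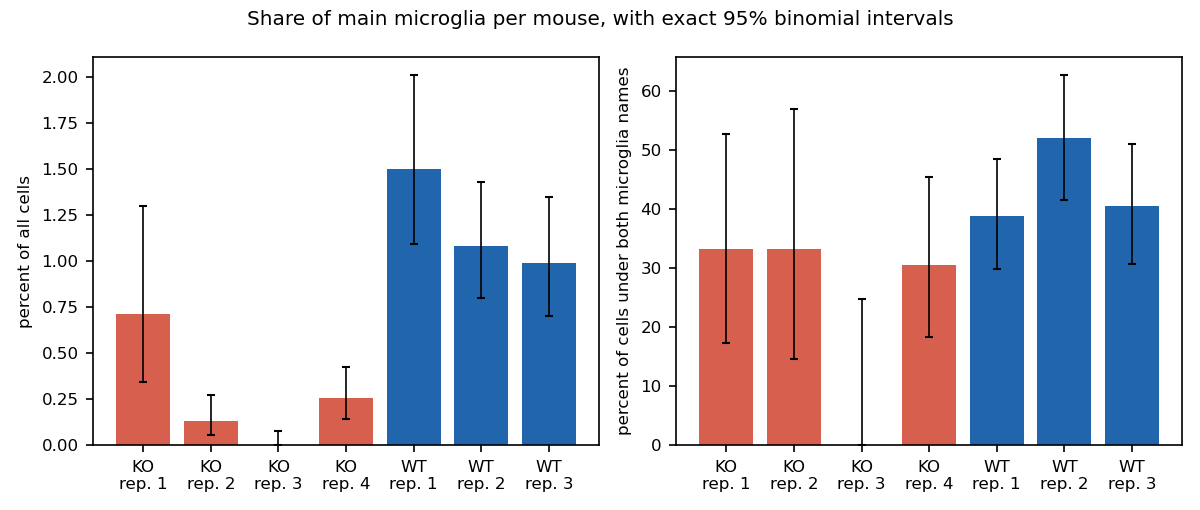
Main microglia as percent of all cells (left) and of cells under both microglia names (right) in each mouse, with exact 95% binomial intervals for counting error; KO bars are red and WT bars blue. KO replicate 3 is at 0 in both panels, and the KO bars lie below the WT bars.

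The second comparison concerned gene expression in main microglia, beginning with the targeted gene. Siglece had 2, 1 and 0 UMIs in KO replicates 1, 2 and 4 (17.5, 37.3 and 0 CPM) and 18, 16 and 4 UMIs in WT replicates 1, 2 and 3 (48.9, 51.4 and 14.6 CPM). The groups overlapped, since KO replicates 1 and 2 lay above WT replicate 3. The pooled ratio of KO to WT was 0.314 with a counting interval of 0.0620 to 0.990. Such an interval, here and for the genes below, takes each UMI as independent. It leaves out the spread between cells and between mice. In edgeR the log2 change was -1.54 with an SE of 0.98 and an adjusted p of 0.843; the direction was the same in all 14 distinct alternatives, from -2.20 to -0.74. In monocytes and macrophages of the same mice Siglece was at 48.7, 41.8 and 41.0 CPM in KO and 51.0, 52.9 and 26.6 CPM in WT. Under the other microglia name it had 0 UMIs in all 4 KO mice and 2, 3 and 3 UMIs in the WT mice. Whether a UMI came from a recombined allele cannot be read from sums over the whole gene.

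Sall1, the locus of the driver, had 4, 2 and 7 UMIs in KO replicates 1, 2 and 4 (34.9, 74.7 and 71.1 CPM) and 28, 48 and 27 UMIs in WT (76.1, 154 and 98.4 CPM). All KO values were below all WT values, the pooled ratio was 0.502 (counting interval 0.259 to 0.897), and the log2 change of -0.92 (SE 0.46) had an edgeR adjusted p of 0.672. Neither gene passed the test in these cells. The other markers were at -0.02 (P2ry12), -0.09 (Tmem119), -0.36 (Olfml3) and -0.09 (Sparc), with adjusted p of 0.916 or more; P2ry12 and Sparc changed sign with a mouse left out. The Siglec genes with enough UMIs were at 0.50 (Siglech), 0.58 (Cd33) and 0.38 (Siglec1), with adjusted p of 0.779 or more.

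A single gene, Nlrp3, passed the genotype test: 1 of 3110 genes tested, or 0.0322%, at an edgeR adjusted p under 0.05. It had 262, 149 and 356 CPM in KO replicates 1, 2 and 4 (30, 4 and 35 UMIs) and 73.3, 93.2 and 61.9 CPM in WT replicates 1, 2 and 3 (27, 29 and 17 UMIs). All KO values were higher than all WT values. The means were 256 ± 103 and 76.2 ± 15.8 CPM (SD, n = 3 each), the log2 change was 1.93 with an SE of 0.33, and the edgeR adjusted p was 0.0163. The pooled ratio was 3.76 with a counting interval of 2.67 to 5.30. DESeq2 called it too (log2 change 1.92, adjusted p = 0.0268). The call was kept in 7 of 13 distinct alternatives and the direction in all 13. It was lost without KO replicate 4 (adjusted p = 0.157) and without WT replicate 1, 2 or 3 (0.246, 0.0570 and 0.279), with the microglia names joined (0.0853) and with a replicate block (0.928). The block set KO replicates 1 and 2 against WT replicates 1 and 2, which also differed in Xist.

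The KO and WT cells also differed in measures of quality and of other cell types. The median mitochondrial share was 2.61%, 2.23% and 2.26% in KO replicates 1, 2 and 4 and 2.20%, 2.06% and 1.78% in WT replicates 1, 2 and 3. The median ribosomal share was 9.26%, 8.35% and 10.04% in KO and 10.05%, 11.8% and 10.9% in WT. Neither measure overlapped between the genotypes, and their part in the results was not tested. Of the KO cells 9 of 32 (28.1%) had a UMI of a lymphocyte marker, and of the WT cells 11 of 131 (8.40%). The summed T and NK markers were at 122 to 262 CPM in the KO mice and 10.9 to 40.1 CPM in the WT mice. Without the cells with such a UMI, the log2 change of Nlrp3 was 2.18 (adjusted p = 0.0422 in edgeR). Pooled by name, Nlrp3 was at 307 CPM in Monocytes (P1-P2), 131 CPM in Macrophages (P3) and 119 CPM in main microglia. The summed monocyte and macrophage markers of main microglia were at 873, 485 and 1290 CPM in KO replicates 1, 2 and 4. In WT replicates 1, 2 and 3 they were at 782, 656 and 415 CPM, an overlap. The part of such cells in the Nlrp3 result was not tested. The part of the Xist difference between mice in these results was not tested.

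No other gene was called, while 230 had an unadjusted p under 0.05, and 4.53% of the genes tested were higher and 8.75% lower in all KO than in all WT mice. Cxcl13, the chemokine that attracts B cells, had 0, 0 and 2 UMIs in KO replicates 1, 2 and 4 and 145, 39 and 47 UMIs in WT (394, 125 and 171 CPM). Its UMIs were in 9.82% of all main microglia. The pooled ratio was 0.0344 (counting interval 0.00415 to 0.126, over UMIs and not over cells or mice), and its adjusted p was 0.182 in edgeR. It passed in 5 of 13 distinct alternatives, all with the same direction: with DESeq2 (adjusted p = 0.0268), and in edgeR with no filter (1.62e-10), with the microglia names joined (0.000107), with a replicate block (0.00174) and without WT replicate 2 (0.0327). In the other 8 the adjusted p was up to 0.42. With no filter the median log2 change of all genes was -0.38, itself towards lower levels in KO. This limit holds for each pass with no filter in this paragraph. The block held only KO and WT replicates 1 and 2, where high Xist went with KO, so genotype and Xist cannot be told apart there. Apoe was at 16070, 9819 and 18529 CPM in KO and 7967, 7396 and 6861 CPM in WT, without overlap, with a log2 change of 1.06 (SE 0.23, adjusted p = 0.159). Apoe was called without KO replicate 2. Lgals3 was at 236, 37.3 and 40.6 CPM in KO and 649, 312 and 492 CPM in WT, again without overlap (-1.88, SE 0.54, adjusted p = 0.466). In edgeR Lgals3 passed in 2 of 14 distinct alternatives, with no filter (adjusted p = 7.86e-05) and without KO replicate 1 (log2 change -3.58, adjusted p = 0.000306). Spp1, which encodes osteopontin, was at 114, 336 and 193 CPM in KO and 1687, 206 and 984 CPM in WT; WT replicate 2 lay among the KO mice (-2.30, SE 0.93, adjusted p = 0.672). Spp1 likewise passed in edgeR with no filter (adjusted p = 1.09e-05) and without WT replicate 2 (log2 change -2.77, adjusted p = 0.0327), 2 of 14.

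Over the gene lists, Nlrp3 was 1 of 21 inflammatory genes tested that passed, and no gene of any other list passed in either direction. The median log2 change of all genes tested was -0.01. The inflammatory genes had a median of 0.55 with 15 of 21 point estimates above 0, the interferon genes 0.26 with 13 of 16, the stress genes 0.25 with 11 of 18 and the Siglec genes other than Siglece 0.50 with 3 of 3. Point estimates within a list come from the same mice, so these counts carry no test. Summed, the inflammatory genes were at 19302, 9781 and 20927 CPM in KO replicates 1, 2 and 4. In WT replicates 1, 2 and 3 they were at 9808, 11768 and 17832 CPM, an overlap. The interferon sums (4704 to 6979 CPM in KO, 4172 to 5447 CPM in WT) and the stress sums overlapped too. On the lower side were glycolysis genes at -0.38 (5 of 14 above 0), class II genes at -0.33 (1 of 6), disease-associated genes at -0.31 (6 of 21), secreted and lysosomal genes at -0.26 (3 of 16) and phagocytosis genes at -0.20 (7 of 24). Surface receptors (-0.11), complement (-0.06), sialic acid genes (-0.04), class I genes (-0.03), transcription factors (0.08), TGF-beta genes (0.08) and proliferation (0.17) lay between. Other list members with wide estimates that did not pass were Rsad2, an interferon-induced antiviral gene (2.46, adjusted p = 0.639, but 0.54 without KO replicate 1), Bhlhe40, a repressor (1.32, 0.583), Adora3, an adenosine receptor (-1.31, 0.632), Axl, a receptor for Gas6 (1.27, 0.251), the glycolytic Pgk1 (-1.19, 0.586) and Pfkl (-1.06, 0.583), and Maf (-0.97, 0.609). In Cd74 and H2-Ab1 the WT mice spanned more than the genotypes differed: Cd74 was at 987, 1829 and 3322 CPM in KO and 456, 3201 and 5943 CPM in WT.

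**Figure D5:**
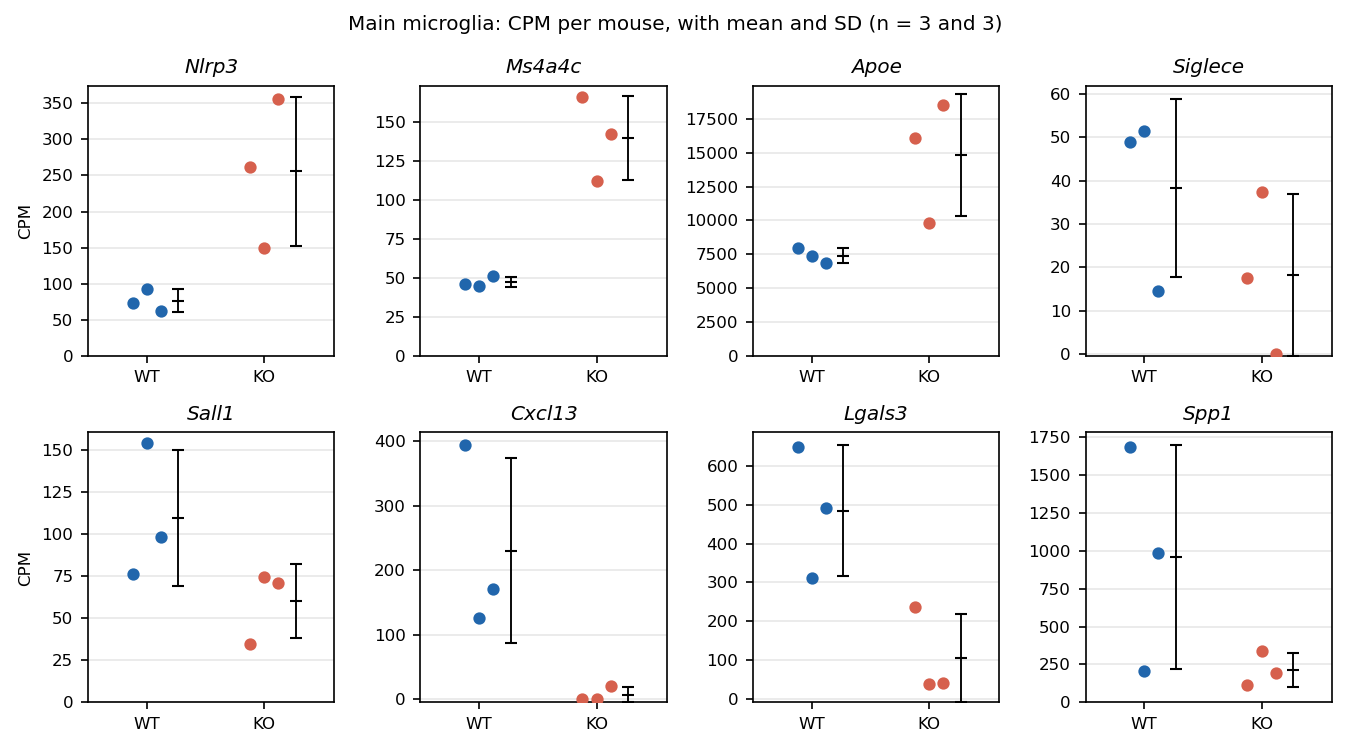
CPM in main microglia of each fitted mouse for 8 genes, WT in blue and KO in red, with the mean and SD of 3 mice beside the points. Nlrp3 is the gene that passed the test, with KO at 149 to 356 CPM above WT at 61.9 to 93.2 CPM; Siglece and Spp1 overlap between the genotypes.

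The third comparison asked whether the genotype effect in main microglia differed from that in monocytes and macrophages of the same mice, with 1 term per mouse. Of 11129 genes, 19 (0.171%) had a difference past the threshold, 11 above 0 and 8 below. The filter kept a gene that was high enough in either cell type. The fit of main microglia alone tested 3110 genes, and 11 of the 19 called here were among those. The rest were too low there to be tested and entered through the monocytes and macrophages. Lgals3 passed here and in all 8 alternatives. In monocytes and macrophages it was at 1885, 917 and 1465 CPM in KO and 1156, 1140 and 1144 CPM in WT, so the lower KO level in main microglia was not seen there; the difference was -2.57 in log2 (SE 0.42, edgeR adjusted p = 8.34e-06). For Nlrp3 monocytes and macrophages were at 112, 75.7 and 189 CPM in KO and 146, 104 and 147 CPM in WT, an overlap, and the difference was 1.69 (SE 0.35, adjusted p = 0.00407), with the call kept in 5 of 8 alternatives. Ms4a4c, a membrane protein of the MS4A family named here after its values were seen, had 166, 112 and 142 CPM in KO and 46.2, 45.0 and 51.0 CPM in WT main microglia. Its means in monocytes and macrophages were 222 and 369 CPM, and the difference was 2.39 (SE 0.44, adjusted p = 0.000167), with 6 of 8 alternatives passing. Crybb1 passed with 2.44 (SE 0.58, adjusted p = 0.0217, and in 4 of 8 alternatives) although its change in main microglia was -0.76: in monocytes and macrophages it had 4, 2 and 3 UMIs in KO and 107, 48 and 49 in WT. Sall1 was low there too, with 0, 0 and 3 UMIs in KO and 30, 15 and 13 in WT.

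Between the microglia names the same test called 2 of 2655 genes (0.0753%). Spp1 differed by -3.32 (SE 0.64, edgeR adjusted p = 0.0247): in the other microglia name it was at 181, 0 and 111 CPM in KO and 91.6, 19.5 and 78.0 CPM in WT. Nlrp3 differed by 2.93 (SE 0.62, adjusted p = 0.0331), with 3, 0 and 6 UMIs in the KO and 18, 8 and 12 in the WT cells of the other microglia name. The higher Nlrp3 of KO main microglia was thus not shared by the second name, at 41.7, 0 and 73.8 CPM against 97.0, 77.9 and 117 CPM. Nlrp3 passed this test in 1 of 8 alternatives and Spp1 in 6 of 8.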

How the data were processed

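The values in the matrix deposited by the authors are expected counts (UMIs, not scaled, over 55491 gene rows), 6.43% of the non-zero values in main microglia being not whole (tolerance 0.001). The deposited cell table gives the counts of detected genes, and mitochondrial and ribosomal percent per cell as the authors computed them, with library, cell type name and phase. FastQC 0.11.5, STARsolo and STAR 2.7.10a on mm10 are named in the submitters' processing notes; cell filters, doublet handling and the naming method are not given in the sources used here. UMIs were summed per mouse and name and rounded to whole numbers; the design had assumed whole counts. Mice with at least 5 main microglia were fitted in edgeR 4.0.16 (TMM, filterByExpr, robust quasi-likelihood, Benjamini-Hochberg over all genes; R 4.3.3), with Siglece kept whatever the filter, and with DESeq2 1.42.0 as an alternative. Differences between cell types used a cell-type-by-genotype term with 1 term per mouse. The genotype fit in main microglia was also run on simulated counts, and its outcome is not reported here. The fits between cell types were not run on simulated counts. Shares were compared by exact permutation over mice. In the fits the spread between mice is estimated with information shared over all genes. Their p-values therefore do not measure the spread of 1 gene alone. A gene can pass where the mice of a genotype disagree, as Arg1 and Hes1 did between cell types. The permutation p-values use only the values of each mouse.

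Named genes are the 5 markers and Siglec genes; called genes without overlap; up to 15 higher and 10 lower genes by mean log2 ratio against each comparator (100 CPM or more, same direction in every mouse); and from each of 25 lists the 4 highest and the 2 with the widest change. Others were chosen after their values were seen. A few genes under this rule are not reported here. The members, lists and tests were chosen with earlier results of these data known. Alternatives were scaling, filter, mice left out, a minimum of 10 cells, joined names, cells without lymphocyte UMIs, equal cells per mouse (7), whole values only and a replicate block.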

Additional observations from a re-analysis of the deposited data

Results flagged for a closer look

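In the main fit the genotype effect of these genes differed between main microglia and monocytes and macrophages. The test was of the difference itself (edgeR, adjusted over 11129 genes). Arg1, Gdf15, Hes1, Rnd3, Xcl1, Snrpa1, Mmp12 and Ckap2l did not pass the filter in main microglia alone. Lgals3 alone passed in all 8 alternatives. Of all genes tested 766 had an unadjusted p under 0.05. Lgals3 (adjusted p = 8.34e-06), Ms4a4c (0.000167) and Nlrp3 (0.00407) are described with the results. Cdkn1a, which encodes the cell cycle inhibitor p21, averaged 788 ± 406 CPM over the KO and 274 ± 154 CPM over the WT mice in main microglia (SD, n = 3 each), against 660 and 747 CPM in monocytes and macrophages (adjusted p = 0.00407). Osm, the cytokine oncostatin M, was at 250 ± 152 and 125 ± 68.2 CPM, against 176 and 219 CPM (0.0175). The adrenergic receptor Adrb1 was at 111 ± 38.7 and 49.0 ± 29.4 CPM, against 2.94 and 9.20 CPM (0.0136). Arg1 (0.00611) had 34, 0 and 9 UMIs in KO and 2, 11 and 12 in WT main microglia. Gdf15 (0.0217) had 2, 0 and 12 against 4, 0 and 7, and Hes1 (0.0368) 14, 0 and 0 against 2, 3 and 4, so most KO UMIs of both came from 1 mouse. Crybb1 (0.0217) is described above. Of the 8 alternatives Cdkn1a passed in 5, Osm in 4, Adrb1 in 6, Arg1 in 4, Gdf15 in 5 and Hes1 in 4.

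On the lower side, Adam8, a membrane protease, averaged 40.1 ± 11.2 CPM over the KO and 119 ± 34.0 CPM over the WT mice in main microglia, against 197 and 156 CPM in monocytes and macrophages (0.00921). Bnip3l, a mitophagy receptor, was at 36.7 ± 16.1 and 118 ± 27.9 CPM, against 103 and 82.5 CPM (0.0200). Pgk1 was at 70.8 ± 66.1 and 224 ± 84.9 CPM, against 355 and 317 CPM (0.0258). For Pgk1 values that are not whole carried 29.7% of the UMIs, and for Gm9493 (0.0308, with 5 against 80 UMIs) 72.0%. Adam8 passed in 4 of 8 alternatives, and Bnip3l, Pgk1 and Gm9493 each in 3.

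In 5 genes a genotype of main microglia was at 0 UMIs, so no fold is given. Rnd3 (0.00012) had 11, 1 and 1 UMIs in KO and 0 in WT. Xcl1 (0.00407), a chemokine of lymphocytes, had 20, 1 and 1 in KO and 0 in WT, so most of its UMIs came from KO replicate 1. Snrpa1 (0.0217) had 0 in KO and 15, 16 and 13 in WT, Mmp12 (0.0282) 0 and 3, 11 and 4, and Ckap2l (0.0430) 0 and 6, 6 and 30. Rnd3 passed in 7 of 8 alternatives, Xcl1 in 5, Mmp12 in 4, Ckap2l in 3 and Snrpa1 in 2.

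Against the other microglia name, Spp1 (0.0247) and Nlrp3 (0.0331) differed by the same kind of test over 2655 genes, of which 140 had an unadjusted p under 0.05.

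In the share of main microglia among all microglia, KO replicate 3, at 0%, stood far from the other 3 KO mice: its gap to the nearest was 0.918 of the whole range, above the critical value of 0.829. Chance flags about 1 group in 20.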

How the results depend on the processing

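The count of genes called in main microglia was 1 with library-size scaling, without cells with lymphocyte UMIs and with whole values only. It was 2 with DESeq2, 2 with a minimum of 10 cells (the same fit as without KO replicate 2), 2 with the microglia names joined, 15 with no filter, where the median log2 change of all genes moved from -0.01 to -0.38, and 0 of 711 genes tested with equal cells (33 at an unadjusted p under 0.05 in edgeR). Nlrp3 was not among those 711 genes, so its call could be neither kept nor lost there. With each mouse left out it ran from 0 (WT replicate 1, with 96 genes at an unadjusted p under 0.05, or WT replicate 3, with 147) to 4 (KO replicate 4), with 3 without KO replicate 1 or WT replicate 2 and 2 without KO replicate 2. Among the fitted mice 2 replicate numbers occur in both genotypes. The deviations of same-numbered mice had correlations of -0.04 and 0.08. These 2 values from few cells cannot tell whether the numbers pair mice, and the labels do not say. A replicate block on these 4 mice called 4 genes, Xist among them and Nlrp3 not. In these mice Xist was at 987 and 1307 CPM in KO and at 2.72 and 0 CPM in WT. Genotype and the Xist difference therefore cannot be told apart in this block.

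Against monocytes and macrophages the 19 calls became 31 with library-size scaling and 13 with no filter, and 2 (without KO replicate 1) to 30 (without KO replicate 2) with a mouse left out, with 26, 5, 11 and 12 without KO replicate 4 and WT replicates 1, 2 and 3. Against the other microglia name the 2 calls became 1 with library-size scaling, 4 with no filter and 0 (without KO replicate 1, with 176 genes at an unadjusted p under 0.05) to 2 with a mouse left out. The causes were not tested.

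Siglece kept its direction and stayed short of the threshold in all alternatives. Both shares kept their direction; with a mouse left out the smallest p the design allows is 0.1 or 0.0667, so these alternatives could not pass. With a mouse left out the difference in shares ran from -1.06 to -0.76 points of all cells and from -22.6 to -11.5 points of all microglia; with cells of at least 2000 UMIs the second was -26.6 (exact permutation p = 0.143).

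Of 527 values of single genes under alternatives 494 kept direction and side, and 18 reversed, all of genes that had not passed. P2ry12 turned to 0.025 with DESeq2 and 0.30 without lymphocyte UMIs; with a mouse left out it ran from -0.37 (KO replicate 4) to 0.31 (WT replicate 2), and was 0.30 without KO replicate 1. Sparc turned to 0.088 without lymphocyte UMIs and ran from -0.35 (without KO replicate 2) to 0.12 (WT replicate 2), with 0.09 without KO replicate 1. With the replicate block Siglech was -0.023, Cd74 0.14 and St3gal6 -0.42. With equal cells Cd74 was 0.12 and H2-Ab1 0.46; with a mouse left out they ran from -1.34 and -1.33 (KO replicate 4) to 0.20 and 0.11 (WT replicate 3). With joined names Maf was 0.034 and Tapbp -0.014. Siglec1 ran from -0.40 (without KO replicate 1) to 0.77 (KO replicate 4), and St3gal6 from -0.30 (KO replicate 4) to 0.50 (KO replicate 1).

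The pooled Sall1 level of main microglia minus that of the other microglia name was -30.0 CPM and, with a mouse left out, ran from -52.2 (WT replicate 2) to 28.0 (WT replicate 1); this alternative was chosen after seeing the data.

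With 239721 UMIs in the KO and 953719 in the WT main microglia, a gene at 10 UMIs in WT would be expected at fewer than 3 in KO, so low genes could not be compared.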
